A study of Mus musculus with 6 samples.

Results

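Wnt proteins are secreted lipid-modified ligands that bind Frizzled receptors with the co-receptors Lrp5 and Lrp6, which leads to stabilisation of beta-catenin and transcription of target genes through TCF/LEF factors. Other Wnt ligands signal mainly without beta-catenin, through Ror and Ryk receptors and the planar polarity proteins. In the mouse uterus, Wnt signalling is known for its part in the formation of endometrial glands and in the response of the stroma to the implanting embryo. The genes described here hold different places in that pathway. They are the ligands Wnt4 and Wnt5b, the secreted antagonist Sfrp1, the R-spondin receptor Lgr5, and Ccnd1, the gene for cyclin D1, which is among the known targets of beta-catenin.

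Every probe set annotated to one of these 5 genes was taken from the deposited table, which gave 8 of its 1382 probe sets. Wnt4, Wnt5b and Ccnd1 have 2 each, and Sfrp1 and Lgr5 have 1 each. The table holds uterine RNA of female mice at 3.5 days post coitum on 6 Affymetrix arrays, as normalized intensities on a linear scale. The 3 Stat3 f/f arrays come from mice with floxed Stat3 alleles and are numbered 1, 2 and 4, and the 3 Stat3 d/d arrays come from mice with the deleted alleles and are numbered 1, 2 and 3. The labels call the mice intact, and the sources used here name neither the driver of the deletion nor age or strain. Separate animals are not stated in the labels, so every p-value here reflects variation among these arrays, part or all of which may be technical.

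The table is a selection. Each of its probe sets has a ratio of group means of at least 1.5, groups that do not overlap (100% of 1382) and an adjusted p under 0.05 in limma (100%). A member past that threshold therefore says little by itself, and a probe set outside the table was not analysed here. Stat3 stood at 207.51 to 356.29 in Stat3 f/f and at 101.42 to 130.73 in Stat3 d/d over its 2 probe sets, although where they lie relative to the deleted part was not examined. Of 17 markers of uterine epithelium and glands, 3 were in the table, with summed intensities of 1176 to 1473 in Stat3 f/f and 3300 to 3643 in Stat3 d/d. Most of that rise was in Calb1, whose group means were 692 and 2317. Those of Cldn3 were 614 and 1008, and those of Cldn4 60.2 and 97.5. Of 15 leukocyte markers, 6 were in the table, and their sums were 151 to 248 and 464 to 745. Of 12 markers of endometrial stroma only Dcn was in it, at 22.2 to 34.9 and 9.59 to 14.4, and of the smooth muscle and endothelium lists none. Of 7 ovary and oviduct markers only Ovgp1 was in it, at 7.42 to 31.3 and 240 to 494. No marker in the table was listed at 0. The uterine steroid receptor Pgr was present in every array but lower in Stat3 d/d, at 1065 to 1613 in Stat3 f/f and 645 to 730 in Stat3 d/d. The part of these marker differences in the results below was not tested. In bulk tissue, fewer cells of a type and less RNA per cell cannot be told apart.

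Wnt4, Sfrp1, Lgr5 and Ccnd1 were lower in Stat3 d/d on all 6 of their probe sets, and Wnt5b was higher on both of its probe sets. The largest ratios of group means were 5.39-fold for Lgr5, 4.20-fold for the dimmer Ccnd1 probe set, 3.69-fold for Sfrp1 and 3.05-fold for the brighter Wnt4 probe set. That order rests on 1 array: without Stat3 f/f replicate 4 the ratios were 2.70, 4.25, 4.30 and 1.98. Of all probe sets in the table, 32.6% were lower past the threshold and 67.4% higher. The median log2 change was -1.18 over the 8 probe sets and 0.70 over all 1382. These genes were chosen with earlier results of these data known, so the contrast describes them and gives no independent support. When 45000 tests were assumed in the Benjamini-Hochberg adjustment, about the size of such an array, 3 of the 8 probe sets passed in limma, against 37.5% of the table. They were the dimmer Ccnd1 probe set, Sfrp1 and the brighter Wnt5b probe set. Without Stat3 f/f replicate 4 the count was 5, against 33.9% of the table.

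**Figure D1:**
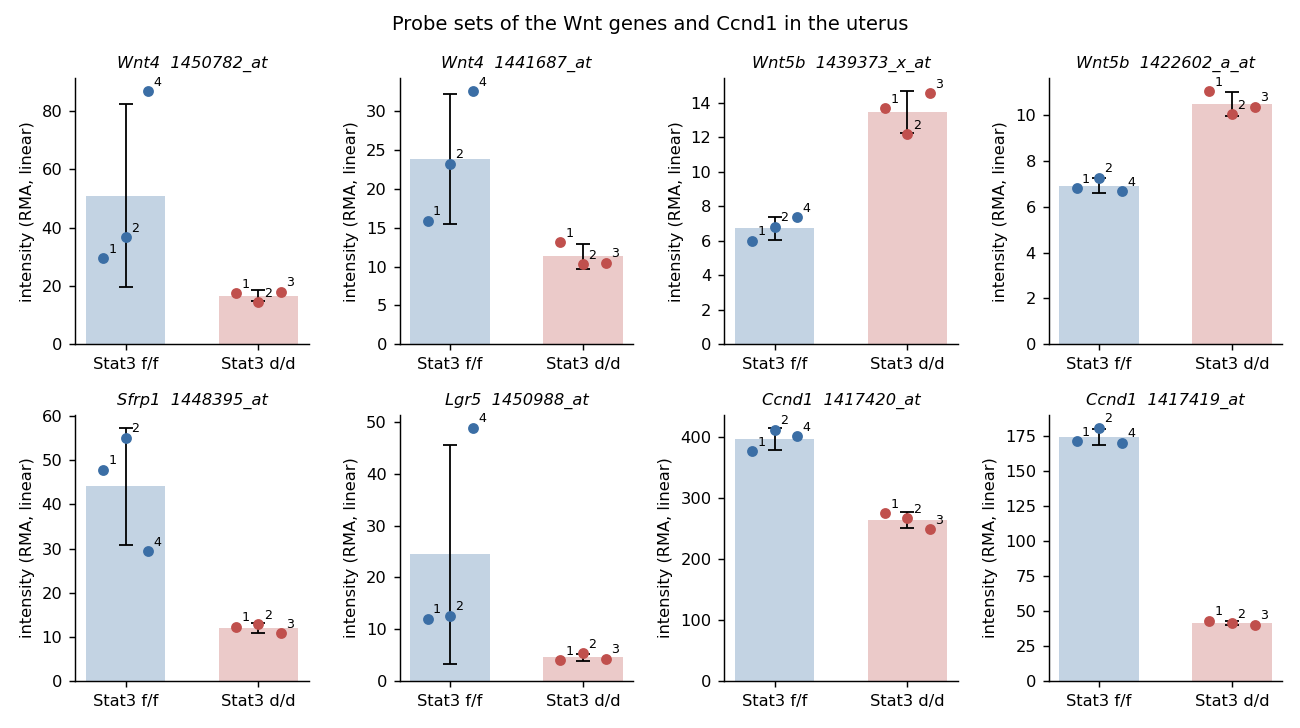
Intensity (RMA, linear scale) of each of the 8 probe sets, with a point for every array labelled by its replicate number, bars for group means and error bars for SD (n = 3 arrays per group). The groups do not overlap in any panel, and Stat3 f/f replicate 4 lies far above replicates 1 and 2 for the brighter Wnt4 probe set (86.9) and Lgr5 (48.9), and below them for Sfrp1 (29.4).

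**Figure D2:**
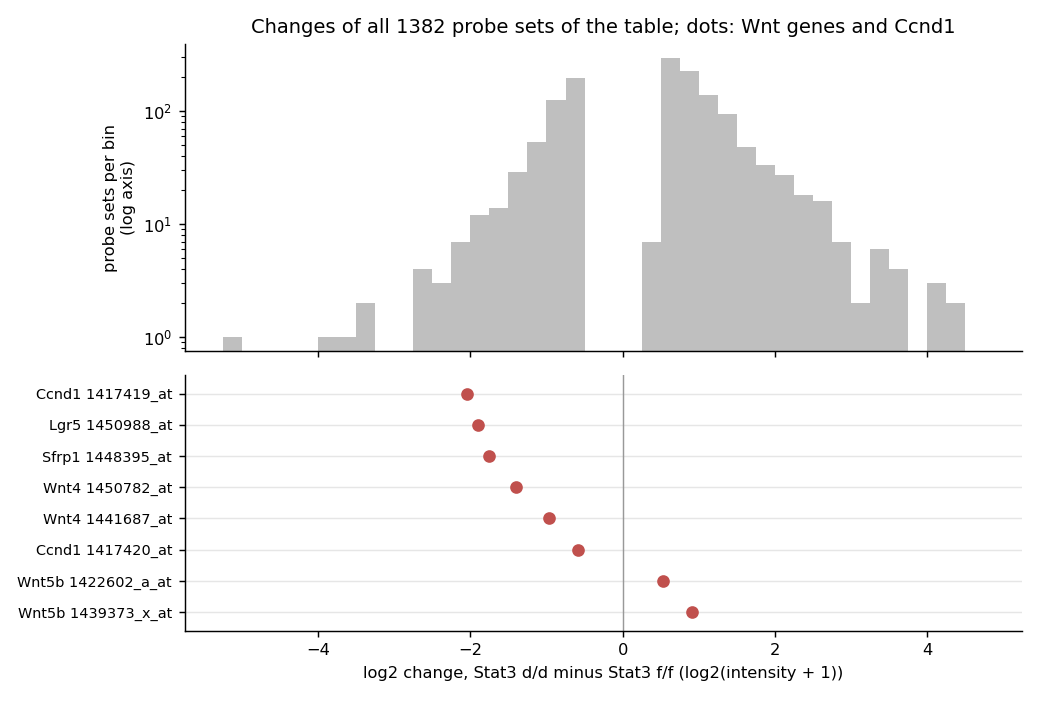
Upper panel, number of probe sets (log axis) against log2 change, Stat3 d/d minus Stat3 f/f, for all 1382 probe sets of the table; lower panel, the same change for the 8 probe sets described here. The empty range around 0 is the selection of the table, 6 probe sets lie on the side of the falls, from -2.04 to -0.59, and both Wnt5b probe sets on the side of the rises, at 0.54 and 0.91.

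Among the ligands, Wnt4 was lower and Wnt5b higher in Stat3 d/d. Wnt4 is needed for stromal decidualization and is made by the endometrium in the peri-implantation uterus. Its brighter probe set (1450782_at) read 29.5, 36.7 and 86.9 in Stat3 f/f replicates 1, 2 and 4, and 17.6, 14.5 and 18.0 in Stat3 d/d replicates 1, 2 and 3. All Stat3 d/d arrays lay below the lowest Stat3 f/f array, and within Stat3 f/f replicate 4 was 2.63 times the mean of the other two. The group means were 51.0 ± 31.3 and 16.7 ± 1.92 (SD, n = 3), and the log2 change was -1.40 (SE 0.33, limma adjusted p = 0.00295). Without Stat3 f/f replicate 4 it was -0.94 (SE 0.20, limma adjusted p = 0.00153), with a ratio of group means of 1.98 in place of 3.05.

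The dimmer Wnt4 probe set (1441687_at) read 15.9, 23.3 and 32.6 in Stat3 f/f and 13.2, 10.3 and 10.5 in Stat3 d/d. Replicate 4 was again the highest Stat3 f/f array and replicate 1 the lowest, which lay only 1.21 times above the highest Stat3 d/d array. The means were 23.9 ± 8.38 and 11.3 ± 1.599 (SD, n = 3), with a log2 change of -0.97 (SE 0.24, limma adjusted p = 0.00381). The second minus the first Wnt4 probe set within an array differed by 0.43 (SE 0.25) between the groups on the log2 scale, and the arrays overlapped (exact two-sided permutation p = 0.2).

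Wnt5b encodes a ligand of the Wnt5 subfamily, which signals mainly without beta-catenin. Its brighter probe set (1439373_x_at) read 5.99, 6.80 and 7.34 in Stat3 f/f and 13.7, 12.2 and 14.5 in Stat3 d/d. Every Stat3 d/d array was at least 1.66 times every Stat3 f/f array, and no array stood apart within its group. The means were 6.71 ± 0.68 and 13.5 ± 1.204 (SD, n = 3), 2.01-fold higher in Stat3 d/d, with a log2 change of 0.91 (SE 0.17, limma adjusted p = 0.000831). The suffix of this probe set marks probes that can match other transcripts.

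The other Wnt5b probe set (1422602_a_at) read 6.80, 7.27 and 6.67 in Stat3 f/f and 11.04, 10.02 and 10.35 in Stat3 d/d, with a log2 change of 0.54 (SE 0.16, limma adjusted p = 0.00724). Both Wnt5b probe sets are dim: their means over all arrays exceed those of only 17.7% and 13.8% of the table's probe sets, whose lowest intensity is 2.47. After each array was centred on its median in this table, which took the table's median change from 0.70 down to 0.24, the changes were 0.44 (limma adjusted p = 0.0416) and 0.07 (limma adjusted p = 0.687). Under that scaling the rise of Wnt5b passed on the brighter probe set and not on the other, as it did after quantile normalization (0.44 and 0.05). With 45000 tests assumed, neither Wnt5b probe set passed after median centring.

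The opposite movement of the ligands can also be read within arrays, where the scaling between arrays cancels. The log2 intensity of Wnt5b minus that of Wnt4, brighter probe sets, was -2.12, -2.27 and -3.40 in Stat3 f/f and -0.34, -0.24 and -0.29 in Stat3 d/d. The 3 Stat3 d/d arrays lay close together and all above the Stat3 f/f arrays. The difference between groups was 2.31 (SE 0.40), a 4.95-fold shift of the ratio. With nothing added to the intensities it was 2.46, and with 16 added it was 1.32. The exact two-sided permutation test gave p = 0.1, the smallest p that 3 against 3 arrays allow, and adjusted p = 0.144 over the 13 pairs compared. Because both genes were selected for groups that do not overlap and move in opposite directions, this pair could not overlap. Without Stat3 f/f replicate 4 the difference was 1.91.

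Annotated start sites in RefSeq (GRCm38.p6) were at hand for Wnt4 and Wnt5b, and the 250 bases before each were searched on both strands for the STAT motif TTCNNNGAA and the TCF/LEF core CTTTGA. Promoter sequences of Sfrp1, Lgr5 and Ccnd1 were not at hand, so these genes were not searched. Wnt4 has 1 start and Wnt5b has 3, of which the Wnt4 start and those Wnt5b starts with a match are shown because these ligands moved in opposite directions. Capitals mark the matches. Wnt4 lies on the plus strand (chr4:137277385-137277634) and Wnt5b on the minus strand (chr6:119467212-119467461 for start 2 and chr6:119449387-119449636 for start 3).
Wnt4: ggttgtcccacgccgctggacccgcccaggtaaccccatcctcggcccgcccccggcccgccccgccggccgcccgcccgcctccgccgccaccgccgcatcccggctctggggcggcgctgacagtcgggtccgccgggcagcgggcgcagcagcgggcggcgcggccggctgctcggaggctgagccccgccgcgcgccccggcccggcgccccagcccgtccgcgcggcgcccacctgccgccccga
Wnt5b start 2: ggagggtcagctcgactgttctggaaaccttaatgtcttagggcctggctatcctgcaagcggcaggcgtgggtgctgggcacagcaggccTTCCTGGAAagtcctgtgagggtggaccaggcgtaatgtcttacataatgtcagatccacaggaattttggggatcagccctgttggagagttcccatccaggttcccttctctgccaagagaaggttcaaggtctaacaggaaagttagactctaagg
Wnt5b start 3: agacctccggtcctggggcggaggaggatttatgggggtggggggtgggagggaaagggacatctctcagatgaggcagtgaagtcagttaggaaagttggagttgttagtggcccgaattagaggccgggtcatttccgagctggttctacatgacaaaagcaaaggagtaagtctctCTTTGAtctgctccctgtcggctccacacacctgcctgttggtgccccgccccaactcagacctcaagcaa

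The Wnt4 window held neither motif and is 85.2% G and C, against a median of 52.4% over all starts. The Wnt5b window of start 2 held TTCCTGGAA, 159 bases before the start, and that of start 3 held CTTTGA, 71 bases before it. The first Wnt5b start (75.2% G and C) held neither. Of 32851 starts in the same table, 7.02% held TTCNNNGAA and 13.8% held CTTTGA in a window of this length. A match is a description of letters and not a binding site, and which start is used in the uterus was not measured.

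Sfrp1, a secreted Frizzled-related protein that binds Wnt ligands outside the cell and holds them from their receptors, was lower in Stat3 d/d. Its probe set (1448395_at) read 47.9, 55.1 and 29.4 in Stat3 f/f and 12.2, 12.9 and 10.8 in Stat3 d/d. The lowest Stat3 f/f array, replicate 4, was still 2.28 times the highest Stat3 d/d array. The means were 44.1 ± 13.2 and 11.96 ± 1.09 (SD, n = 3), so Stat3 d/d stood at 27.1% of Stat3 f/f. The log2 change of -1.76 (SE 0.23, limma adjusted p = 0.000119) was the 31st deepest of the 451 falls in the table. With 45000 tests assumed its adjusted p in limma was 0.00388.

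Sfrp1 and the ligand Wnt4 moved in the same direction between the groups but not within Stat3 f/f. Replicate 4 had the highest Wnt4 and the lowest Sfrp1 of that group. The log2 difference Sfrp1 minus Wnt4 was 0.68 and 0.57 in Stat3 f/f replicates 1 and 2, -1.53 in replicate 4, and -0.49, -0.16 and -0.69 in Stat3 d/d. The groups overlapped, with a difference of -0.36 (SE 0.74, exact two-sided permutation p = 0.7, adjusted p = 0.758). Single arrays decide this value. Without Stat3 f/f replicate 4 the difference was -1.08 and the groups did not overlap (exact two-sided permutation p = 0.1, the smallest possible), and without replicate 1 it was 0.032 with overlap.

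Lgr5, a receptor for R-spondins that marks epithelial stem cells in several organs and the gland epithelium of the uterus, had a ratio of group means of 5.39, which falls below those of Sfrp1 and the dimmer Ccnd1 probe set without Stat3 f/f replicate 4. The probe set (1450988_at) read 11.99, 12.58 and 48.94 in Stat3 f/f and 3.98, 5.33 and 4.32 in Stat3 d/d. Replicate 4 was 3.98 times the mean of the other Stat3 f/f arrays, while the Stat3 d/d arrays lay near the lowest intensity of the table. The means were 24.5 ± 21.2 and 4.54 ± 0.70 (SD, n = 3), with a log2 change of -1.91 (SE 0.43, limma adjusted p = 0.00233), which was -1.27 (SE 0.19, limma adjusted p = 0.000206) without replicate 4. The ratio of group means then was 2.70. Among all 1382 probe sets the spread of Lgr5 within Stat3 f/f was larger than that of 99.5%, and that of the brighter Wnt4 probe set was larger than that of 98.1%.

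In both cases 1 array, Stat3 f/f replicate 4, lay far from the other two. Relative to the mean of the other Stat3 f/f arrays on the log2 scale it was higher by 1.91 for Lgr5, a value exceeded by 2 probe sets of the table, and by 1.38 and 0.73 for the Wnt4 probe sets, exceeded by 6 and 50. For Sfrp1 it was -0.78, and 51 probe sets lay lower. The values of Wnt5b (0.18 and -0.07) and Ccnd1 (0.03 and -0.05) were close to 0. Over the whole table, 3.18% of probe sets in replicate 4 differed from the mean of the other two by more than 1 on the log2 scale. That was the largest share of the 6 arrays, against 1.74% and 1.23% for replicates 1 and 2. The median absolute difference was 0.222 for replicate 4, and 0.217 and 0.222 for replicates 1 and 2. In the same array the summed epithelial and gland markers (1176) and leukocyte markers (151) were the lowest of the group, and Dcn (34.9) and Pgr (1613) the highest. Among the epithelial markers, Cldn3 was low in it (453 against 630 and 758) and Cldn4 was not (62.6 against 61.5 and 56.7). Ovgp1 read 7.42 in it against 31.3 and 21.8. Their part in the Wnt4, Lgr5 and Sfrp1 values of that array was not tested.

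**Figure D3:**
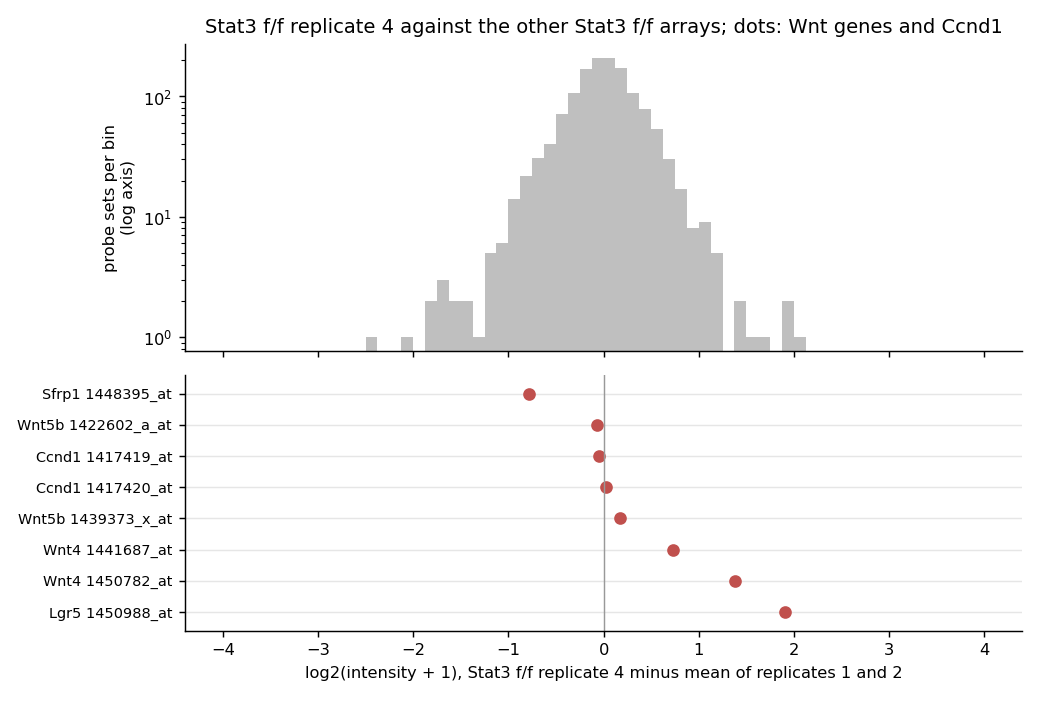
Upper panel, number of probe sets (log axis) against the log2 intensity of Stat3 f/f replicate 4 minus the mean of replicates 1 and 2, for the whole table; lower panel, the same value for the 8 probe sets. Lgr5 (1.91) and the brighter Wnt4 probe set (1.38) lie in the upper tail, Sfrp1 (-0.78) on the low side, and Wnt5b and Ccnd1 near 0.

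Ccnd1 encodes cyclin D1, which activates Cdk4 and Cdk6 in G1. Its brighter probe set (1417420_at) read 377, 412 and 402 in Stat3 f/f and 275, 267 and 249 in Stat3 d/d. The arrays of each group lay within 1.11-fold of each other and did not overlap. The means were 397 ± 18.3 and 264 ± 13.6 (SD, n = 3), with a log2 change of -0.59 (SE 0.16, limma adjusted p = 0.005). Its ratio of group means, 1.505, lies at the edge of the selection of the table. After median centring the change was -1.05, and after quantile normalization -1.06.

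The dimmer Ccnd1 probe set (1417419_at) showed a deeper fall. It read 171, 181 and 170 in Stat3 f/f and 43.0, 41.2 and 40.2 in Stat3 d/d, with all arrays of a group within 1.07-fold of each other. The means were 174 ± 5.85 and 41.5 ± 1.42 (SD, n = 3), and the log2 change was -2.04 (SE 0.15, limma adjusted p = 2.7e-06; 8.79e-05 with 45000 tests assumed). By p this was the 37th probe set of the table, and by depth the 18th fall.

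The 2 Ccnd1 probe sets thus gave falls of different size. Within each array the dimmer minus the brighter probe set was -1.13, -1.18 and -1.23 in Stat3 f/f and -2.65, -2.67 and -2.60 in Stat3 d/d. The difference between the groups was -1.46 (SE 0.04), a 2.75-fold shift of the ratio, without overlap (exact two-sided permutation p = 0.1, the smallest possible, adjusted p = 0.144). Among the 148 genes of the table with several probe sets in the same direction, the median gap between probe sets was 0.27, and 7 genes had a larger gap than Ccnd1. Both probe sets are annotated to the same gene. Where each lies on the transcript was not examined here, and the ratio of group means was 1.505 on one and 4.20 on the other, in the same direction.

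Of all 13 pairs compared within arrays, 9 did not overlap between the groups, and each of these reached the smallest p of 0.1. In 4 of these the pair moves in opposite directions, which the selection of the table separates by construction. In the other 5 both probe sets move the same way. On the brighter probe sets, the within-array difference of Ccnd1 from Wnt4 was higher in Stat3 d/d by 0.81 (SE 0.47) on the log2 scale, from Sfrp1 by 1.17 (SE 0.27) and from Lgr5 by 1.32 (SE 0.64), with no overlap. The difference of the dimmer from the brighter Wnt5b probe set was -0.37 (SE 0.10). With the dimmer Ccnd1 probe set in its place, the 3 Ccnd1 differences turned to -0.64, -0.29 and -0.14 and overlapped, so their direction depends on the probe set. Without Stat3 f/f replicate 4 those of the brighter probe set were 0.36 from Wnt4, 1.44 from Sfrp1 and 0.69 from Lgr5. With all arrays, each of the differences without overlap had an adjusted exact permutation p of 0.144, and 3 against 3 arrays cannot reach the threshold of 0.05. Lgr5 minus Sfrp1 differed by -0.15 (SE 0.90, exact permutation p = 1) and Lgr5 minus Wnt4 by -0.50 (SE 0.27, exact permutation p = 0.2), both with overlap. With all 6 arrays, the order of the falls among Lgr5, Sfrp1 and Wnt4 was within the spread between arrays. Without Stat3 f/f replicate 4 it was not for Sfrp1: Lgr5 minus Sfrp1 was then 0.75 without overlap (exact permutation p = 0.1), as Sfrp1 changed by -2.02 (SE 0.19), Lgr5 by -1.27 (SE 0.19) and Wnt4 by -0.94 (SE 0.20).

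**Figure D4:**
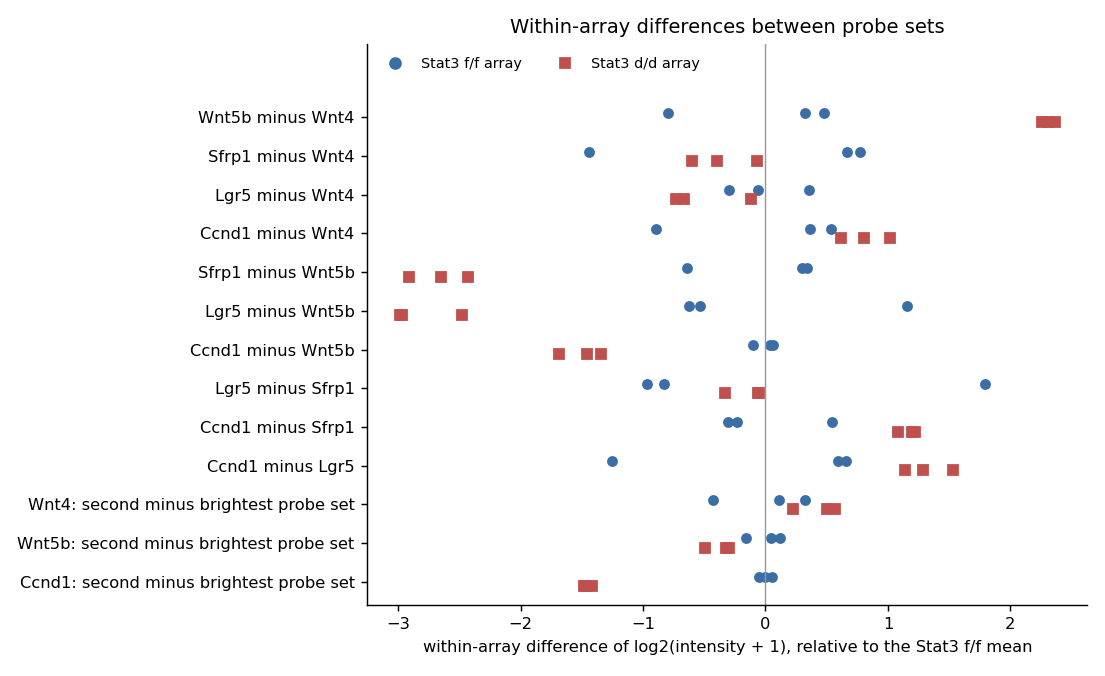
Within-array differences of log2(intensity + 1) for the 13 pairs of probe sets, each shifted by its Stat3 f/f mean, with circles for Stat3 f/f arrays and squares for Stat3 d/d arrays. The Ccnd1 probe sets separate with the tightest groups (-1.46, SE 0.04), whereas Sfrp1 minus Wnt4, Lgr5 minus Wnt4, Lgr5 minus Sfrp1 and the Wnt4 probe sets overlap.

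A list of 104 genes of the Wnt pathway had 11 in the table, the 5 genes above and 6 others. Of these 11, 9 were lower and 2 higher in Stat3 d/d past the threshold, against 33.1% lower and 66.9% higher of the 987 genes of the table. Their median log2 change was -0.79, and that of all genes 0.70. Without the 5 genes, which were chosen with earlier results known, 5 were lower and 1 higher, with a median of -0.73. The list was itself chosen with earlier results known, so neither count gives independent support. After median centring, which lowers every change by the same amount and so could not reverse a fall, the 9 falls ran from -2.37 to -1.05. With 45000 tests assumed, Sfrp1 was lower and Wnt5b higher by the probe sets that stand for each gene, against 8.81% and 27.1% of all genes. The other 93 genes of the list, among them all TCF/LEF factors and co-receptors on it, were not among its named genes and were not tested. The 6 others had adjusted p-values in limma from 0.00248 to 0.0132.

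Among the 6 others, the ligand Wnt16 read 25.4, 22.2 and 35.4 in Stat3 f/f and 12.4, 14.5 and 18.5 in Stat3 d/d (log2 change -0.82, SE 0.22). Its groups did not overlap, and replicate 4 was again the highest Stat3 f/f array. The receptor Fzd6 was the other gene that rose, from 144, 124 and 246 to 311, 332 and 357 on its brighter probe set (1.01, SE 0.24; 0.80 on the other). Its change was 0.55 after median centring (limma adjusted p = 0.0685), and 1.31 without Stat3 f/f replicate 4.

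The intracellular genes were lower. Daam1, a formin that binds Dishevelled, read 25.6, 18.8 and 19.1 in Stat3 f/f and 8.77, 15.7 and 9.42 in Stat3 d/d, a log2 change of -0.88 (SE 0.23). Nkd1, a Dishevelled-binding inhibitor and feedback target, was at 113 to 119 in Stat3 f/f and 65.0 to 79.9 in Stat3 d/d (-0.67, SE 0.16). All 5 genes of the list of Wnt targets that were in the table, out of 18, were lower: Ccnd1, Lgr5, Nkd1, Sp5 and Sox9. By comparison, 33.1% of all 987 genes were lower past the threshold. Ccnd1, Lgr5 and the list of targets itself were chosen with earlier results known, so this count gives no independent support for a fall of Wnt targets. The transcription factor Sox9, which is active in gland epithelium, changed by -0.79 (SE 0.18) and -0.83 (SE 0.19) on its 2 probe sets. Sp5, a zinc finger factor, was dim at 6.76 to 10.6 and 4.28 to 5.73 (-0.59, SE 0.20), and without Stat3 f/f replicate 4 its change was -0.43 (limma adjusted p = 0.0502). Axin2, Lef1, Tcf7, Myc and Cd44, also on that list, were not in the table.

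**Figure D5:**
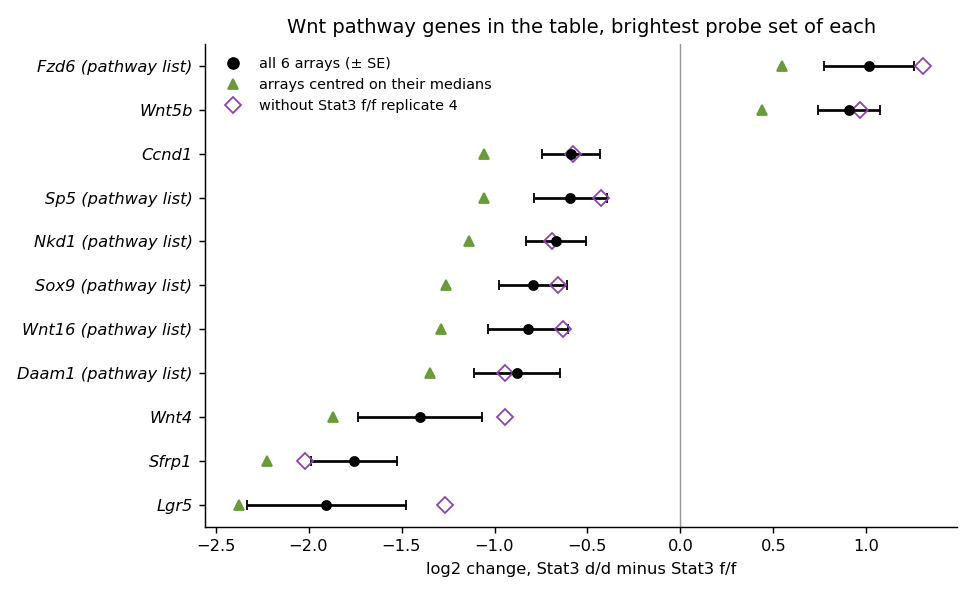
Log2 change, Stat3 d/d minus Stat3 f/f, of 11 genes of the Wnt pathway, each by its brightest probe set, with all 6 arrays (circles, ± SE), with arrays centred on their medians (triangles) and without Stat3 f/f replicate 4 (diamonds); "pathway list" marks the 6 genes other than the 5 described first. Wnt5b and Fzd6 lie above 0 and the other 9 below it in each setting. Centring moves every gene to the left by the same amount, so it could not reverse a fall.

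For Ccnd1, lists of G1 regulators and of proliferation genes were set beside it. Of 20 G1 genes, Ccnd1 and Rb1 were in the table, and Rb1, the retinoblastoma protein that cyclin D1 kinases phosphorylate, was at 84.9 to 96.5 in Stat3 f/f and 56.3 to 65.1 in Stat3 d/d (-0.58, SE 0.16). Of 22 proliferation genes only Cenpa was in it, higher in Stat3 d/d at 12.8 to 15.1 against 6.09 to 8.58 (0.86, SE 0.18). Mki67, Top2a and the Mcm genes were not in the table, so the fall of Ccnd1 could not be set against them.

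The genes with the most similar profiles were found by the root mean square difference of log2 values over the 6 arrays, after centring each probe set on its own mean. Those of Wnt4 were Pik3ap1 (0.17), Bpifb5 (0.19) and Plat, the tissue plasminogen activator (0.22), against a median of 1.17 over all named probe sets. Plat read 445, 378 and 888 in Stat3 f/f and 197 to 218 in Stat3 d/d, with the same high replicate 4. Those of Lgr5 were the retinaldehyde dehydrogenase Aldh1a1 (0.20), Gkn3 (0.27) and Wnt4 itself (0.37), against a median of 1.46. Aldh1a1 read 114, 106 and 432 in Stat3 f/f and 41.6 to 52.6 in Stat3 d/d. For Sfrp1 they were Isoc1 (0.18), Fxyd2, a regulator of the sodium pump (0.26), and Tex15 (0.26), against a median of 1.27. For Wnt5b they were the vesicle fusion protein gene Vamp3 (0.04), Trim21 (0.06) and Mtmr7 (0.06), against a median of only 0.38. For Ccnd1 they were the secreted semaphorin Sema3b, Hspb7 and Zic5 (0.06 to 0.07), against a median of 0.68. As every probe set of the table separates the groups, this likeness includes the difference between groups that the selection required.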

How the data were processed

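Uterine RNA of 3 Stat3 f/f and 3 Stat3 d/d samples was measured as biotin-labelled cRNA on Affymetrix arrays, per the labels' protocols. The authors deposited an intensity per probe set, not log-transformed. RMA is named in the submitters' processing notes, without a version; RMA yields log2 values, and neither their return to a linear scale nor the filter behind the table is described in those notes. Gene names come from the array platform's annotation, where 1191 probe sets had 1 gene symbol (987 genes), 57 several, and 134 were unnamed here. Columns of no sample numbered 0.

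Values were taken as log2(intensity + 1), which understates changes of dim genes, and fitted over all 1382 probe sets in limma (version 3.58.1, R version 4.3.3; functions lmFit and eBayes) with group as the only term, and p-values were adjusted by Benjamini-Hochberg at a threshold of 0.05. Adjustment was repeated with 45000 assumed tests. A gene with several probe sets was represented by its brightest one, on average over the 6 arrays. Within-array differences were tested by exact permutation over samples. Figures were drawn with matplotlib 3.10.9.

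The members, gene lists and tests were chosen with earlier results of these data known. Named genes were every probe set of the 5 genes, the other listed Wnt, G1 and proliferation genes in the table, the 3 nearest profiles of each gene, and Stat3; other names are cell type markers from the same lists, or list genes said to be missing from the table. The number of arrays limits the precision. Tested on simulated data made for this contrast (1382 probe sets, spread as in the selected table), the fit recovered 66 of 66 changed 4-fold, 53 of 67 changed 2-fold and 29 of 67 changed 1.5-fold, and made 7 false calls. The other simulated probe sets were left unchanged, whereas every probe set of the deposited table passes the threshold. These rates therefore do not describe that table. Alternatives were scaling, pseudocounts, a filter on dim probe sets, variance models, array weights, omission of single arrays, a block for the replicate number, and averaging of probe sets within a gene.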

Additional observations from a re-analysis of the deposited data

How the results depend on the processing

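All 8 probe sets kept their direction under every alternative in which they were tested, although median centring lowers every change by the same amount and could not reverse a fall. Of 107 alternative values, 105 stayed on the same side of the threshold. The exceptions were the dimmer Wnt5b probe set under median centring and quantile normalization. The 8 past the threshold were therefore 7 under those scalings, and 8 under every other alternative except when probe sets with a mean intensity under 32 were left out, which leaves 3 of them (Wnt4 and both of Ccnd1) in the table, all past it. With 45000 tests assumed, 6 passed after median centring and 6 after quantile normalization, where 43.7% and 43.6% of the table passed. After median centring these were the 6 lower probe sets, so the brighter Wnt5b probe set, 1 of the earlier 3, no longer passed. In place of the 3, 1 passed without dim probe sets (26.0% of the table), and 2 to 5 when 1 array was left out. The 9 lower Wnt pathway genes became 3 without dim probe sets, for the same reason, and 8 or 9 when 1 array was left out. Wnt5b minus Wnt4 ranged from 1.32 with a pseudocount of 16 to 2.55, and the Ccnd1 probe set difference from -1.50 to -1.17. In alternatives chosen after the data were seen, leaving out 1 array took Sfrp1 minus Wnt4 from -1.08 to 0.032 and Lgr5 minus Sfrp1 from -0.63 to 0.75, so that both change sign. The dimmer Ccnd1 probe set turned Ccnd1 minus Wnt4 to -0.64, minus Sfrp1 to -0.29 and minus Lgr5 to -0.14. The replicate number as a block gave 1.91 for Wnt5b minus Wnt4 and -1.50 for the Ccnd1 probe sets, with 8 member probe sets past the threshold and 3 with 45000 tests assumed. The groups share only numbers 1 and 2, so that fit compares the groups on those arrays alone and says little about robustness. Arrays of the same number deviated together with r = 0.09 and 0.03 over the table, so the numbers were not taken to pair the samples. The selection of the table leaves no way to choose between the scalings.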
